A study of Mus musculus with 23 samples.

Results

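The genes described here were 8 genes of B cells, plasma cells and IgA transport, taken by name from the 19215 entries of the expression table: Jchain, Pigr, Cd79a, Cd79b, Ms4a1, Mzb1, Derl3 and Tnfrsf17. They were measured by RNA-seq in the small intestine of ICR mice, as FPKM (fragments scaled to transcript length and to library size), in 23 libraries. In the study's design, male mice of 3 weeks of age were injected once with busulfan at 40 mg/kg, a chemotherapeutic that damages the gut lining, and were then given saline (Sa) or fecal microbiota transplantation (FMT) by mouth each day for 1 week, with tissue collected at 5 weeks of age. The FMT came from donors dosed for 3 weeks with water (Con-FMT), with alginate oligosaccharide (AOS) at 10 mg/kg (A10-FMT) or with AOS at 100 mg/kg (A100-FMT). Luminal contents of the donors were pooled by group, so that the recipients of a group shared 1 donor material. All 4 treatments carried busulfan, and no mouse without busulfan was among these libraries. The sample names held codes for 2 sets of libraries, named set 1 and set 2 here. The code was not explained in the sources used here, and whether the timing above holds for both sets was not stated. Each of the 8 groups had 3 libraries, apart from Sa of set 1 with 2. The labels did not say that libraries came from separate litters or cages, so p-values measure the spread between these libraries.

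IgA is the main antibody of the gut. Plasma cells in the lamina propria, beneath the epithelium, join IgA units with the J chain (Jchain). The polymeric immunoglobulin receptor (Pigr) on the basal side of the epithelial cells takes up this IgA, carries it through the cell and releases it into the lumen. Plasma cells arise from B cells, which sense antigen through a receptor whose signalling chains are encoded by Cd79a and Cd79b.

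These genes split sharply by level. Pigr, the only one of them that works in the epithelium, averaged 1243 FPKM over the 23 libraries and ranked 46 of 19215 entries. The other 7 genes together summed to 1.5 to 3.29 FPKM per library, with a median of 2.27. Within a library, Pigr stood 312 to 746 times above that sum, with a median of 544. FPKM is scaled by transcript length, so levels of different genes can be set side by side. In RNA from a piece of tissue, fewer cells of a type and less RNA per cell cannot be told apart.

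Pigr lies at chr1:130826684-130852249 and Derl3 at chr10:75893398-75895941 (RefSeq, GRCm38.p6, the assembly that mm10 names). Stretches upstream of both starts are shown because they hold sequence elements of regulators in the gene lists taken up below. These are the E-box bound by Usf1 (29.4 FPKM) and Usf2 (40.3 FPKM), and the ER stress element bound by Atf6 (7.22 FPKM) and Xbp1 (93.6 FPKM). Of these regulators, only Xbp1 is described by name below. Both stretches are printed on the strand of the gene, with the matched letters in capitals, and positions count from the gene's start.
Pigr, chr1:130826573-130826658, -111 to -26: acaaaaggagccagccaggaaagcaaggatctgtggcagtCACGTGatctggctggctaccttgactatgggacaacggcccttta
Derl3, chr10:75893190-75893300, -208 to -98: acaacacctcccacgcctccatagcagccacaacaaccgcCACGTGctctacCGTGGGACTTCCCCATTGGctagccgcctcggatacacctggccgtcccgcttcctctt
The E-box CACGTG stood at -71 to -66 in Pigr and at -168 to -163 in Derl3. In Derl3 the second run of capitals, at -156 to -138, matched the ER stress element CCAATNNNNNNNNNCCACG on the opposite strand. Of 32851 RefSeq promoter windows of the same length, from 250 bases before to 50 after a start, 7.15% held the E-box and 0.119% the ER stress element on either strand. The octamer ATGCAAAT, an element of immunoglobulin and B cell promoters, was in 1.74% of the windows and in none of the 5 windows matched to these genes (Pigr, Jchain, Cd79a, Derl3 and Tnfrsf17). Cd79b, Ms4a1 and Mzb1 had no window. A match describes the letters only, and binding was not measured.

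The tissue carried epithelial markers at high levels, and the defining markers of stroma, vessels and muscle were near 0. Keratins and epithelial surface genes averaged 2533 FPKM (Krt8), 2385 (Krt19), 968 (Epcam) and 694 (Vil1), and the 7 epithelial markers summed to 6948 to 9779 FPKM per library. Among genes of stroma and vessels, Col1a1 averaged 0.043 FPKM, Dcn 0.122 and Pecam1 0.104, and the whole list of 10 summed to at most 1.03 FPKM. Of 7 smooth muscle markers in the table only Tagln, at 1.24 FPKM, passed 1 FPKM, and Acta2, Myh11 and Des averaged 0.033, 0.0109 and 0.01 FPKM. Other immune lists were not all near 0. The T cell list summed to 5.39 to 31.5 FPKM per library and the myeloid list to 51.2 to 79.4 FPKM. Within the myeloid list Cd14 averaged 59.2 FPKM, and Csf1r 0.0261 FPKM. Whether the share of lamina propria in the pieces plays a part in the low levels of the B cell and plasma cell genes was not tested.

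**Figure D1:**
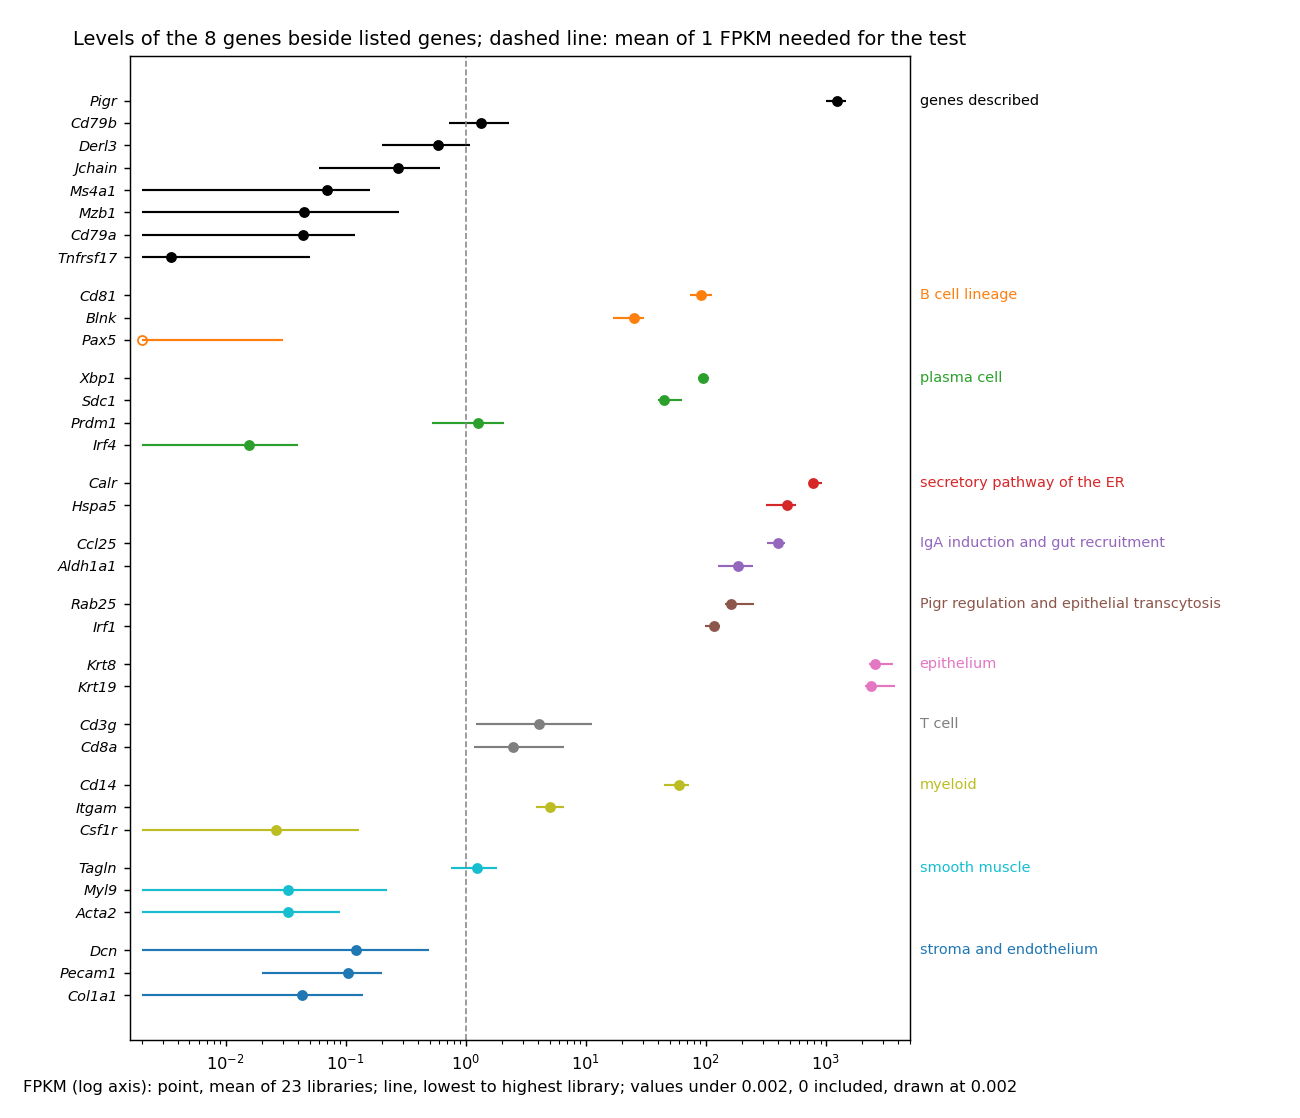
Mean FPKM on a log axis (points) with the lowest and highest of 23 libraries (lines) for the 8 genes described and for listed genes of the pathway and of cell types, where values under 0.002 FPKM, 0 included, are drawn at 0.002. Pigr, at 1243 FPKM, sits among the epithelial genes, and the other 7 genes lie at 1.33 FPKM or lower. Cd79b, Derl3 and Jchain (1.33, 0.582 and 0.27 FPKM) lie above Pax5, Irf4 and the markers of stroma. Ms4a1, Mzb1, Cd79a and Tnfrsf17, at 0.07 FPKM or lower, lie within the span of those markers.

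1 library stood apart. Replicate 3 of Sa in set 1 had a deviation from the other libraries that followed GC content (Spearman rho 0.69 across genes, against -0.22 to 0.22 in the others), and its median correlation with the other libraries was 0.954, against 0.979 to 0.985. Its title and its description named different columns of the table. The title's column was used. For Pigr and for the gene lists of the IgA pathway, some called results rest on Sa of set 1. Those are given also without this library and with the description's column. The test was limma on log2(FPKM + 1) for the 11337 entries that averaged 1 FPKM or more, with p-values adjusted over all of them. Only Pigr and Cd79b, 2 of the 8 genes, passed that filter. Across 29 contrasts each, 5 of 58 results were called at an adjusted p under 0.05 and 11 had an unadjusted p under 0.05, all of them for Pigr.

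Jchain, which links IgA units and lets them bind Pigr, was low in every library. It lies at chr5:88519809-88527897 and averaged 0.27 FPKM. In set 1 the Sa mice had 0.32 and 0.35 FPKM, and Con-FMT had 0.14, 0.22 and 0.08. A10-FMT of set 1 had 0.29, 0.5 and 0.52 FPKM, and A100-FMT had 0.15, 0.3 and 0.19. In set 2 the Sa mice had 0.07, 0.12 and 0.06 FPKM, and Con-FMT had 0.09, 0.46 and 0.61.
A10-FMT of set 2 had 0.34, 0.16 and 0.09 FPKM, and A100-FMT had 0.44, 0.31 and 0.41. Sa was thus above Con-FMT and A100-FMT in set 1 without overlap, and below A100-FMT in set 2 without overlap. Over all 19187 entries above 0, the share with every library lower than in Sa was 9.94% for Con-FMT and 12.8% for A100-FMT in set 1, and the share with every library higher was 12.8% for A100-FMT in set 2. The separations of Jchain from Sa in set 1 held with the description's column, at 0.32 FPKM. Leaving out the Sa library that stood apart cannot undo a separation, so it gives no check of them. A10-FMT lay above Con-FMT in set 1, as did 8.71% of entries, and the groups overlapped in set 2. These levels are a description, since Jchain was under the filter for the test.

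When all 19187 entries were kept in the fit, in an alternative to the filter, the A10-FMT minus Con-FMT difference of Jchain changed between sets by -0.52 on the log2(FPKM + 1) scale, set 2 minus set 1 (limma, adjusted p = 0.0399, with 10.7% of entries called). In that fit the 6 genes under the filter gave 174 results, of which 3 were called and 26 had an unadjusted p under 0.05. The others called were Derl3 in A10-FMT minus Sa of set 1, at -0.39 (adjusted p = 0.0498, 16.5% of entries called) with overlapping FPKM, and Tnfrsf17 in A10-FMT minus Con-FMT of set 1, at -0.038 (adjusted p = 0.0439, 8.56% of entries called). All of them rest on values of at most 1.08 FPKM, which the table gives with 2 decimals.

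The genes of plasma cells were low as well. Tnfrsf17, the receptor through which plasma cells take survival signals from the epithelium and its surroundings, was above 0 in 2 of 23 libraries, both of Con-FMT in set 1, at 0.03 and 0.05 FPKM, and was listed at 0 in the other 21. It lies at chr16:11313232-11320074. Mzb1, an endoplasmic reticulum protein of antibody-secreting cells, was listed at 0 in 10 libraries and reached its highest value, 0.28 FPKM, in Con-FMT replicate 3 of set 2. That library was also the highest in Jchain, at 0.61 FPKM, and in the summed T cell list, at 31.5 FPKM against 5.39 to 22.2 in the other libraries. In it Tnfrsf17 was listed at 0, and Derl3 (0.53 FPKM) and Cd79b (1.04 FPKM) were below their means of 0.582 and 1.33 FPKM. Cd79a (0.06 FPKM) and Ms4a1 (0.12 FPKM) were above theirs. The sum of the 7 B cell and plasma cell genes was 2.64 FPKM there, within the 1.5 to 3.29 FPKM of all libraries. Whether the cell content of that piece of tissue plays a part was not tested.

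Derl3, which helps remove misfolded proteins from the endoplasmic reticulum, averaged 0.582 FPKM, and was above 0 in every library. Sa of set 1 had 1.08 and 0.71 FPKM, Con-FMT 0.47, 0.78 and 0.58, A10-FMT 0.39, 0.77 and 0.2, and A100-FMT 0.73, 0.53 and 0.65. In set 2 Sa had 0.55, 0.61 and 0.42 FPKM, Con-FMT 0.53, 0.39 and 0.53, A10-FMT 0.57, 0.78 and 0.45, and A100-FMT 0.61, 0.59 and 0.47. Sa of set 1 had the highest mean, 0.895 FPKM, and A10-FMT of set 1 the lowest, 0.453 FPKM, and all neighbouring groups in that order overlapped. Groups farther apart in it need not overlap. Sa of set 1 lay above every library of Sa, Con-FMT and A100-FMT of set 2, but overlapped A10-FMT of set 2. The share of all entries separated between sets in this way was not counted.

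The B cell genes differed from each other in level. Cd79b (chr11:106311341-106314562) averaged 1.33 FPKM and exceeded Cd79a (chr7:24897497-24901858), its partner in the B cell receptor, in 23 of 23 libraries. Cd79a averaged 0.0443 FPKM, so that the mean of Cd79b was 30 times higher, and Cd79a was listed at 0 in 5 libraries. Ms4a1, the B cell surface protein CD20, averaged 0.07 FPKM with a range of 0 to 0.16. It lies at chr19:11249679-11266149 within the span of a long non-coding RNA, 4930526L06Rik, and no statement on strand was found in the sources used here. Cd79a was higher in all A100-FMT than in all A10-FMT libraries of set 2, as were 7.48% of entries, at values of at most 0.12 FPKM.

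Cd79b was the only B cell gene that could be tested. In set 1 it stood at 1.13 and 2.07 FPKM in Sa, 1.32, 1.33 and 0.86 in Con-FMT, 1.29, 1.46 and 0.72 in A10-FMT, and 0.84, 2.31 and 1.1 in A100-FMT. In set 2 it stood at 1.41, 1.32 and 1.23 FPKM in Sa, 1.51, 1.21 and 1.04 in Con-FMT, 0.92, 1.87 and 1.54 in A10-FMT, and 1.33, 1.44 and 1.35 in A100-FMT. Every group overlapped its neighbours in the order of means, and the lowest and the highest value, 0.72 and 2.31 FPKM, both fell in set 1. No contrast of Cd79b was called by limma, and none of the 29 had an unadjusted p under 0.05 (lowest adjusted p = 0.372). Over both sets, the FMT groups differed from Sa by -0.15 (95% interval -0.46 to 0.17) for Con-FMT, -0.10 (-0.42 to 0.21) for A10-FMT and -0.05 (-0.36 to 0.27) for A100-FMT on the log2(FPKM + 1) scale. These intervals allow changes in both directions.

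**Figure D2:**
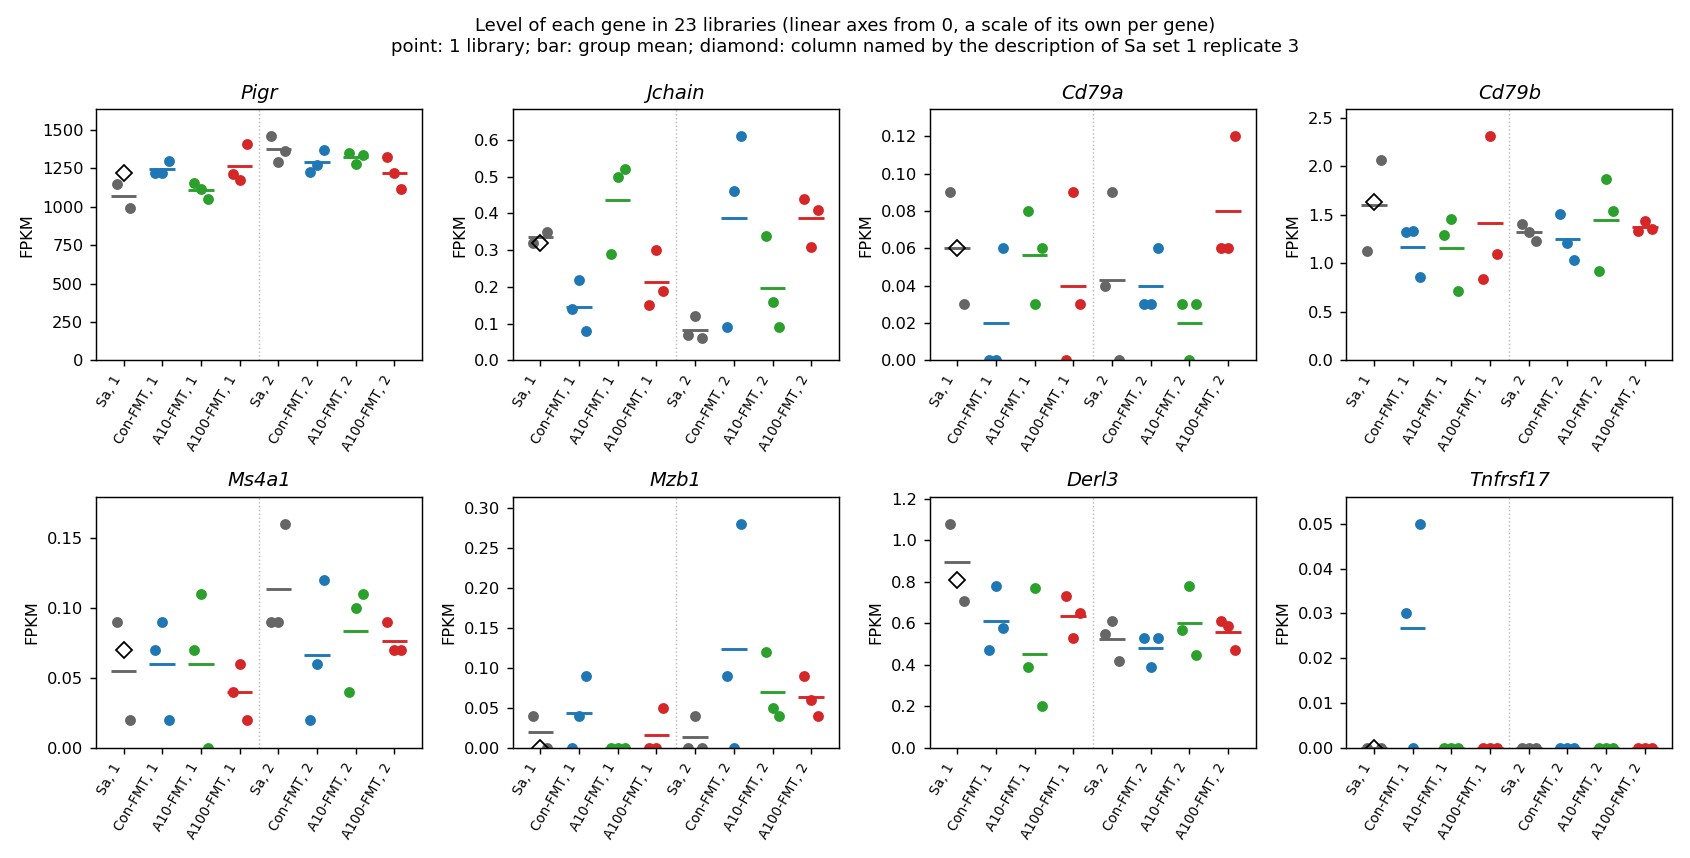
FPKM of each of the 8 genes in the 8 groups, where points are libraries, bars are group means and the open diamond is the column named by the description of Sa replicate 3 in set 1 (linear axes from 0, with a scale of its own for each gene). Pigr lies between 992 and 1457 FPKM in every library, while Cd79a, Ms4a1, Mzb1 and Tnfrsf17 never exceed 0.28 FPKM.

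Pigr carried the only called differences among the genes that passed the filter. In set 1 it stood at 1149 and 992.1 FPKM in Sa, 1220.15, 1216 and 1298 in Con-FMT, 1154, 1116 and 1051 in A10-FMT, and 1215, 1174 and 1403 in A100-FMT. In set 2 it stood at 1457, 1293 and 1364 FPKM in Sa, 1225, 1273 and 1369 in Con-FMT, 1351, 1278 and 1334 in A10-FMT, and 1322, 1215 and 1112 in A100-FMT. In set 1 both Sa mice were below every Con-FMT and A100-FMT mouse, whereas in set 2 Sa had the highest mean of all groups. The whole range was narrow, with a coefficient of variation of 9.29% over 23 libraries. In the order of group means, from 1371 FPKM in Sa of set 2 to 1070 FPKM in Sa of set 1, every group overlapped the next. Groups farther apart in it need not overlap, and Sa of set 1 lay below Sa of set 2 in every library. The share of all entries separated between sets in this way was not counted.

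Against Sa in set 1, Pigr rose in A100-FMT by 0.24 on the log2(FPKM + 1) scale (SE 0.089, fold 1.18, 95% interval of the fold 1.04 to 1.34, limma adjusted p = 0.0451). This was 1 call among 6 results, in contrasts where 26.9% (Con-FMT), 32% (A10-FMT) and 35.2% (A100-FMT) of all tested genes were called. The difference was 0.22 in Con-FMT (adjusted p = 0.0676) and 0.05 in A10-FMT (adjusted p = 0.672). Without the Sa library that stood apart, the A100-FMT difference was 0.13 (adjusted p = 0.611, with 0.238% of genes called), and with the description's column it was 0.09 (adjusted p = 0.50, 8.52% called). It was 0.16 without A100-FMT replicate 3 (adjusted p = 0.178), under trimmed-mean scaling 0.21 (adjusted p = 0.0602), and the adjusted p was 0.0905 with all genes kept. With the description's column, at 1218 FPKM, Sa overlapped Con-FMT and A100-FMT. As to separation, every library was higher than Sa for 14.2% of all entries in Con-FMT and for 17.1% in A100-FMT.

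In set 2, none of 6 results for Pigr and Cd79b against Sa was called by limma, and 1 had an unadjusted p under 0.05, in contrasts where 0.0353%, 0.423% and 0.0353% of genes were called for Con-FMT, A10-FMT and A100-FMT. For Pigr, A100-FMT differed from Sa by -0.17 (95% interval -0.34 to -0.01, adjusted p = 0.327), Con-FMT by -0.09 and A10-FMT by -0.05. Over both sets the differences were 0.07 (-0.06 to 0.19), -0.00035 (-0.13 to 0.12) and 0.03 (-0.09 to 0.16), with none called, none at an unadjusted p under 0.05, and 0.75%, 0.132% and 0.891% of genes called. Among the intervals of these averaged folds, the lowest limit was 0.917 (A10-FMT) and the highest 1.14 (Con-FMT).

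The A100-FMT effect on Pigr differed between the sets by -0.41, set 2 minus set 1 (SE 0.12, limma adjusted p = 0.0215). This was the 1 call among 12 such results, 3 of them with an unadjusted p under 0.05, in a contrast where 26.8% of genes were called. It was -0.31 without the Sa library that stood apart (adjusted p = 0.149, 4.1% called), -0.27 with the description's column (adjusted p = 0.0904, 18.6% called) and -0.34 without A100-FMT replicate 3 of set 1 (adjusted p = 0.052). The corresponding difference was -0.31 for Con-FMT (adjusted p = 0.0954, 0.00882% of genes called) and -0.10 for A10-FMT (adjusted p = 0.527, 28.4% called). Since the 3 contrasts share the Sa mice, they are not independent of each other.

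Between FMT groups, no result for Pigr or Cd79b was called by limma in either set or over both. In set 1, 2 of 6 had an unadjusted p under 0.05: A10-FMT minus Con-FMT of Pigr was -0.17 (adjusted p = 0.151, 16.7% of genes called) and A100-FMT minus A10-FMT was 0.19 (adjusted p = 0.167, 5.66% called). Neither pair overlapped in FPKM, and 19.4% and 18.8% of all entries were separated in the same direction. A100-FMT minus Con-FMT of set 1 was 0.02, where 0.406% of genes were called. In set 2 the differences of A10-FMT minus Con-FMT, A100-FMT minus Con-FMT and A100-FMT minus A10-FMT were 0.04, -0.09 and -0.12, where 0.379%, 0% and 0.00882% of genes were called. Over both sets they were -0.07 (-0.18 to 0.05), -0.03 (-0.15 to 0.08) and 0.03 (-0.09 to 0.15), where 0%, 0.123% and 0.132% of genes were called. The changes of these differences between sets were not called either, with 20.8%, 0% and 3.5% of genes called.

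**Figure D3:**
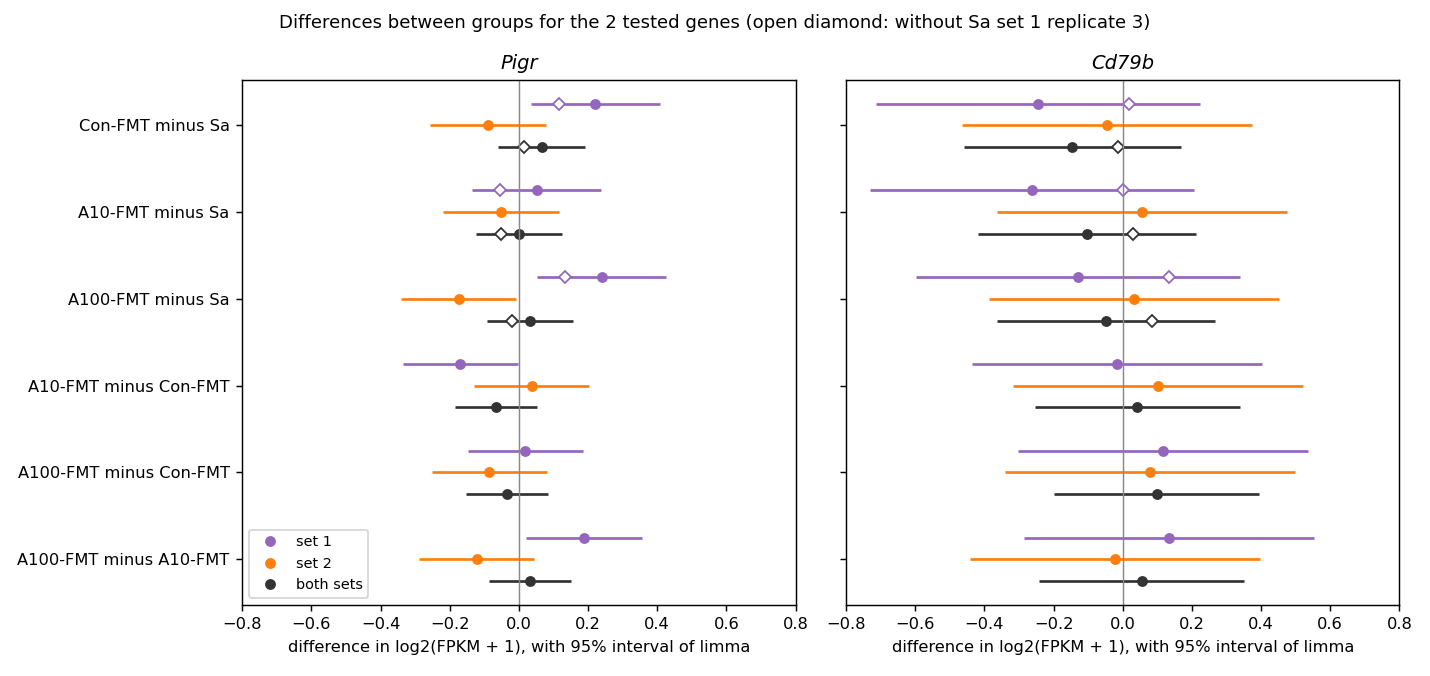
Differences between groups in log2(FPKM + 1) for Pigr and Cd79b by set and as the mean of both, with points for limma estimates, lines for 95% intervals and open diamonds for the estimate without Sa replicate 3 of set 1. For Pigr the set 1 differences from Sa (0.22 and 0.24 for Con-FMT and A100-FMT) move to 0.12 and 0.13 without that library, and every interval of Cd79b spans 0.

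Pigr was also compared between the sets within each treatment. It was higher in set 2 by 0.36 in Sa (adjusted p = 0.0105, 38.1% of genes called) and by 0.26 in A10-FMT (adjusted p = 0.0221, 30.4% called), and the mean over the 4 treatments was higher by 0.15 (adjusted p = 0.0298, 13.3% called). The difference was 0.05 in Con-FMT (0.00882% called) and -0.05 in A100-FMT (0% called). The Sa difference was 0.25 without the library that stood apart (adjusted p = 0.321, 0.0529% called), and the mean over treatments 0.13 (adjusted p = 0.0554, 11% called). With the description's column they were 0.21 (adjusted p = 0.124, 4.63% called) and 0.12 (adjusted p = 0.0609, 7.38% called). The A10-FMT difference does not involve Sa, and stood at 0.26 without that library (47.5% called) and with the description's column (47.7% called). The median of all tested genes was 0.12 in that contrast, and under trimmed-mean scaling the Pigr difference was 0.14 (adjusted p = 0.192). Among all 8 groups, Pigr differed by limma's F test (adjusted p = 0.0323) and Cd79b was not called (adjusted p = 0.939), where 33.8% of genes were called. For Pigr the adjusted p was 0.0491 without the Sa library that stood apart, 0.0403 with the description's column and 0.0761 with all genes kept, and the call was also lost under trimmed-mean scaling, adjustment for GC content and length and the replicate block. What separates the sets is not known from the labels, and the set cannot be told apart from anything else that differed between them.

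The remaining genes of the IgA pathway were taken as 7 lists. Immunoglobulin chains were mostly outside the data used here: of 14 listed, Vpreb1 (0.174 FPKM) and Igll1 (0.00217 FPKM), surrogate chains of developing B cells, were measured, and Igha, Ighm, Igkc and the other constant regions were not analysed here. Of 30 B cell lineage genes, 25 averaged under 1 FPKM, among them Cd22 (0.0135) and Pax5, the factor that fixes B cell identity (0.0013). The 5 that passed the filter, Cd81 (90.2 FPKM), Blnk (24.97), Lyn, Syk and Bcl11a, are also used by other cell types. In 17 measured genes of lymphoid follicles and homing, only Ltbr (118.4 FPKM) and Bcl6 (2.94 FPKM) passed.

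Of 18 plasma cell genes, 8 passed 1 FPKM, led by Xbp1 (93.6 FPKM), a factor for secretory capacity, and Sdc1 (44.3 FPKM), a surface proteoglycan, both of which epithelial cells also make. Irf4, needed for plasma cell formation, averaged 0.0157 FPKM. The secretory pathway of the endoplasmic reticulum had 31 of 32 genes tested, led by the chaperones Calr (786 FPKM) and Hspa5 (474 FPKM). IgA induction and gut recruitment had 7 of 14 measured genes tested, led by Ccl25 (401 FPKM), a chemokine that draws lymphocytes with Ccr9 to the small intestine, and Aldh1a1 (183.7 FPKM), which makes retinoic acid. Ccl28, a chemokine for IgA plasma cells, averaged 22.8 FPKM, and Tnfsf13 and Tnfsf13b, the ligands of Tnfrsf17 known as APRIL and BAFF, averaged 13.35 and 7.02 FPKM. Their receptors on B cells and plasma cells were near 0, with Tnfrsf13c at 0.0209 and Tnfrsf13b at 0.0535 FPKM. Pigr regulation and epithelial transcytosis had 24 of 26 genes tested, led by Rab25 (161 FPKM), a GTPase of apical recycling, and Irf1 (117 FPKM), an interferon-driven factor.

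In set 2 and over both sets, no gene of these 7 lists was called against Sa by limma among the 77 tested, the 8 genes above left out. At an unadjusted p under 0.05 there were 7 for Con-FMT, 11 for A10-FMT and 7 for A100-FMT in set 2, and 14, 12 and 14 over both sets. Over all 11337 tested genes these counts were 651, 1627 and 1606 in set 2, and 2659, 2260 and 2987 over both sets. For A10-FMT in set 2, 4 were called without the Sa library that stood apart (5.19% against 3.43% of all genes) and 3 with the description's column (3.9% against 3.1%). With that column there was also 1 for A100-FMT in set 2 (against 4.95% of all genes) and 1 for A10-FMT over both sets (against 1.38%). In set 1 the calls were 15 of 77 for Con-FMT (6 higher, 9 lower, 19.5% against 26.9% of all genes), 21 for A10-FMT (7 higher, 14 lower, 27.3% against 32%) and 26 for A100-FMT (12 higher, 14 lower, 33.8% against 35.2%). The shares were near or below that of all genes. Without the Sa library that stood apart the counts were 0, 3 and 0, and the shares of all genes called were 0.00882%, 8.13% and 0.238%. With the description's column the counts were 0, 22 (28.6%, 11 in each direction) and 3, against 0.397%, 33.8% and 8.52% of all genes. The median change of the 77 genes in set 1 was -0.02, -0.05 and -0.02, and that of all genes 0.05, -0.01 and 0.05.

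In set 1, 5 of the 12 genes highest in level in their lists were called against Sa in at least 1 contrast, all of them lower, beside the shares of all genes and the calls in both directions given above. None of the 12 was called without the Sa library that stood apart. With the description's column 3 were, all in A10-FMT: Cd81 at -0.22 (limma adjusted p = 0.0271), and Irf1 and Ltbr, the lymphotoxin receptor, at 0.17 (adjusted p = 0.0386) and 0.15 (adjusted p = 0.0188). Rab25 fell by 0.42 on the log2 scale in Con-FMT (limma adjusted p = 0.0259), by 0.39 in A10-FMT (adjusted p = 0.0113) and by 0.38 in A100-FMT (adjusted p = 0.0166). Without the Sa library that stood apart its differences were -0.11, -0.09 and -0.07, and with the description's column -0.13, -0.11 and -0.09. Sdc1 fell by 0.31 in A10-FMT and 0.35 in A100-FMT (adjusted p = 0.0425 and 0.0258), and Calr by 0.18 and 0.17 (adjusted p = 0.0439 and 0.0484). Without that library Sdc1 was at -0.01 and -0.05 and Calr at -0.12 and -0.11, and with the description's column Sdc1 was at -0.0073 and -0.05 and Calr at -0.13 and -0.12. Xbp1 fell by 0.19 in Con-FMT (adjusted p = 0.0385) and Cd81, a membrane protein that B cells share with other cells, by 0.34 in A10-FMT (adjusted p = 0.007). Both were at -0.22 without that library, and Xbp1 was at -0.19 with the description's column. Irf1, Ccl25, Aldh1a1, Hspa5, Blnk, Ltbr and Bcl6 were not called with the title's column, with differences from -0.25 (Blnk in A10-FMT) to 0.40 (Aldh1a1 in A10-FMT). Without the Sa library that stood apart, the Pigr regulation list had 0, 1 and 0 calls in place of 6, 9 and 8, the secretory list 0, 1 and 0 in place of 7, 6 and 12, and the B cell lineage list none in place of 0, 2 and 1. Of 7 epithelial markers, 3 were called for Con-FMT, 3 for A10-FMT and 4 for A100-FMT, with Krt19 at -0.43, -0.40 and -0.42. In these contrasts 26.9%, 32% and 35.2% of all genes were called. The marker counts include the Sa library that stood apart, with the title's column, and are not given without it. The summed level of the 7 markers was 9779 FPKM in that library, 7307 FPKM in the other Sa mouse and 6948 to 8179 FPKM in the FMT groups of set 1. Their part in these list results was not tested.

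**Figure D4:**
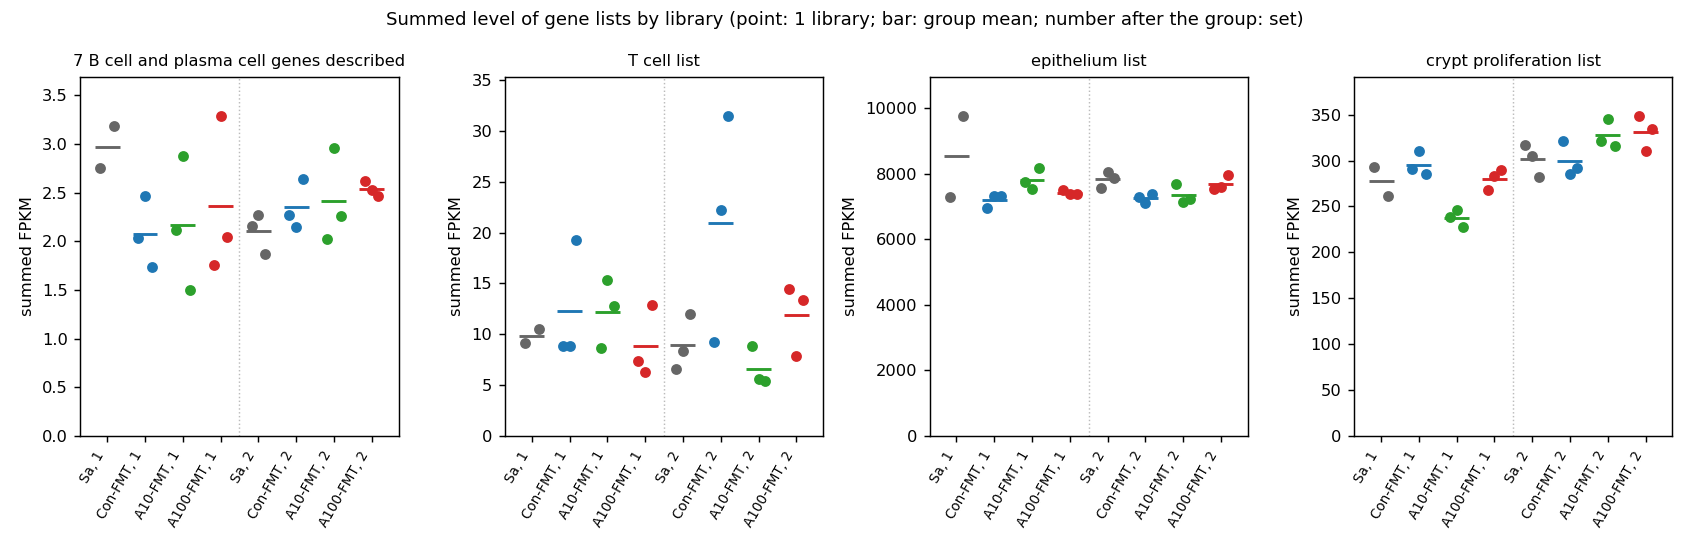
Summed FPKM by library and group for the 7 B cell and plasma cell genes described, the T cell list, the epithelium list and the crypt proliferation list (linear axes from 0, points for libraries, bars for group means). The 7 genes sum to 2.75 and 3.18 FPKM in Sa of set 1 and to 1.74 to 2.46 FPKM in Con-FMT of set 1 without overlap, but A10-FMT (1.5 to 2.87 FPKM) and A100-FMT (1.76 to 3.29 FPKM) of set 1 overlap Sa. In set 2 the sums are 1.87 to 2.27 FPKM in Sa, 2.15 to 2.64 in Con-FMT, 2.02 to 2.96 in A10-FMT and 2.46 to 2.62 in A100-FMT, and only the last group lies apart from Sa. Sa is above Con-FMT in set 1 but below A100-FMT in set 2. Among single entries, 9.94% had every Con-FMT library of set 1 below Sa, and 12.8% every A100-FMT library of set 2 above Sa. No such share was computed for sums of genes, which is what the panel shows. Cd79b, the highest of the 7 by mean, was not called in any contrast. T cell markers reach 31.5 FPKM in 1 Con-FMT library of set 2, and the highest epithelial sum, 9779 FPKM, is the Sa library of set 1 that stood apart.

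Across libraries, of 28 pairs of the 8 genes, none passed the adjusted permutation test by Pearson's r or Spearman's rho, and an unadjusted p under 0.05 was found in 1 and 2 pairs. Pearson's r ran from -0.42 to 0.40 over 23 libraries. The lowest was for Jchain with Pigr (r = -0.42, permutation p = 0.046, adjusted p = 0.607; rho = -0.44, permutation p = 0.0374, adjusted p = 0.523). It was -0.55 without the 2 libraries farthest from the median of Jchain, -0.74 in set 1 and -0.23 in set 2, and 0.05 after the group means were taken out.

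Among tested genes, those most like Pigr across the 23 libraries were Rnf125 (r = 0.89), Etl4 (0.89), Fgfr2 (0.88), Cep128 (0.88) and Usp28 (0.87), on the log2(FPKM + 1) scale. For Rnf125 the correlation was 0.83 in set 1 and 0.95 in set 2. The closest to Jchain were Tnip1 (0.72), Sod1 (0.70), Gal3st1 (0.69), Apba3 (0.69) and Igsf23 (0.69), and to Cd79a Vti1b (0.65), Ankrd46 (0.63), Txndc17 (0.61), Atp5md (0.61) and Chchd7 (0.61). They were picked as the highest of 11337, all points share library effects, and the values of Jchain and Cd79a are sparse, so these are descriptions only.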

How the data were processed

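The authors isolated total RNA from mouse small intestine with TRIzol and sequenced it on an Illumina HiSeq 2500. By their methods, reads per gene were converted to RPKM and compared with DEGseq. The values deposited are FPKM, by the name of the table, with 2 decimals, per gene and library. The build in the submitters' processing notes is mm10, and the aligner and counter are not given in the sources used here. FPKM holds no read numbers, so the depth is unknown and no interval or limit for a value of 0 was computed. All 24 columns were mapped to samples, 1 of them as the alternative column of Sa replicate 3 in set 1. Of 17842 NCBI Gene numbers, 17725 were matched to a RefSeq symbol.

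Values were analysed as log2(FPKM + 1) with R 4.3.3 and limma 3.58.1. All 23 libraries entered 1 model with 8 group means (lmFit, contrasts.fit, eBayes with trend), for entries averaging 1 FPKM or more (11337 tested, 7878 not). P-values are two-sided, adjusted with the Benjamini-Hochberg method over all genes tested, with a threshold of 0.05. The code was tested on simulated data. Correlations used 100000 permutations (two-sided), in scipy 1.17.1 under Python 3.11.15, with pandas 2.3.3, statsmodels 0.14.6 and numpy 2.4.6. Figures used matplotlib 3.10.9. Alternatives were a pseudocount of 0.1, a filter at 5 FPKM, all genes kept, trimmed-mean scaling, quantile normalization, the description's column, adjustment for GC content and length (known for 92.9% of tested genes), a replicate block, array quality weights, the compared groups alone and each library left out.

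The 8 genes and the lists were chosen with earlier results of these data known. Named were the 8 genes, the genes of a list called in set 2 or over both sets (none), and the 2 highest by mean FPKM in each list. Other listed genes, such as Cd22, Pax5, Irf4, Ccl28, Tnfsf13, Tnfsf13b and stromal markers, were named after their values were seen.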

Additional observations from a re-analysis of the deposited data

Results flagged for a closer look

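The effect of A100-FMT on Pigr differed between the sets by a test of the difference itself: -0.41 on the log2(FPKM + 1) scale, set 2 minus set 1 (limma, adjusted p = 0.0215). Pigr was higher than in both Sa libraries in 3 of 3 A100-FMT mice of set 1, as were 17.1% of all entries, and with the description's column of Sa replicate 3 (1218 FPKM) the groups overlapped. In set 2 the mean of A100-FMT was 1216 FPKM against 1371 FPKM in Sa. The difference was -0.31 (adjusted p = 0.149) without Sa replicate 3 of set 1, -0.27 (adjusted p = 0.0904) with the description's column and -0.34 (adjusted p = 0.052) without A100-FMT replicate 3 of set 1.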

How the results depend on the processing

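Counts of calls over the 8 genes (Pigr and Cd79b, or all 8 with all genes kept) depended on several choices. The 1 call of FMT groups against Sa in set 1 became 2 with quantile normalization and 0 with trimmed-mean scaling, the description's column, GC content and length, array quality weights or the compared groups alone, and ranged from 0 to 2 with 1 library left out. With all genes kept it was 1, but of Derl3, and the Pigr call was lost (adjusted p = 0.0905). The 1 difference of an effect between sets became 2 with all genes kept, where Jchain joined Pigr, and 0 with the description's column, array quality weights or the compared groups alone (0 to 2 with 1 library left out). Calls between FMT groups in set 1 went from 0 to 1 with all genes kept, by Tnfrsf17. The 3 calls of set 2 against set 1 became 1 with all genes kept, quantile normalization, trimmed-mean scaling, the description's column, GC content and length, array quality weights or the groups alone (1 to 3 with 1 library left out). The F test over 8 groups lost its 1 call, to 0, with all genes kept, trimmed-mean scaling or GC content and length (0 to 1 with 1 library left out). Same-numbered mice showed no common deviation by the median (r = 0.0019 over 33 pairs, range -0.35 to 0.32, 10 of them over 0.1). With 2 or 3 libraries per group, this cannot exclude that the numbers pair the samples. With the replicate block the calls were 0 in set 1 against Sa, 0 in set 2 against set 1 and 0 in the F test.

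The Pigr rise in A100-FMT of set 1 was called in 10 of 23 fits with 1 library left out (0.13 to 0.34, adjusted p 0.00778 to 0.611). It was lost without Sa replicate 3 (0.13), A100-FMT replicate 3 (0.16, adjusted p = 0.178) or replicate 1 (0.27, adjusted p = 0.0609) of set 1, and without any 1 of 10 libraries of other groups, where the estimate was 0.24 and adjusted p 0.0506 to 0.0542 (set 1: Con-FMT replicates 1 and 2, A10-FMT replicates 1 and 2; set 2: Sa replicate 3, Con-FMT replicate 2, A10-FMT replicates 1, 2 and 3, A100-FMT replicate 2). The difference of this effect between sets was lost in 2 of 23 (Sa replicate 3, -0.31, and A100-FMT replicate 3, -0.34, of set 1), the Sa difference between sets in 1 (Sa replicate 3 of set 1, 0.25) and the A10-FMT difference in 3, without A10-FMT replicate 3 of set 1 (0.22, adjusted p = 0.0934) or replicate 1 (0.24, adjusted p = 0.0632) or 3 (0.25, adjusted p = 0.0618) of set 2. The mean over treatments was lost in 7, with adjusted p of 0.0503 to 0.0581 (set 1: Sa replicate 3, A10-FMT replicate 3, A100-FMT replicates 1 and 2; set 2: Sa replicate 1, A10-FMT replicate 3, A100-FMT replicate 1). The F test was lost without A10-FMT replicate 2 or 3 of set 1, or without Sa replicate 1 or 3 or A10-FMT replicate 3 of set 2. Without Sa replicate 1 of set 1, Con-FMT minus Sa of set 1 was also called for Pigr (0.33, adjusted p = 0.0112), as was its difference between sets (-0.42, adjusted p = 0.0101). Trimmed-mean scaling moved the median of all genes by up to 0.11. No direction reversed among called results. Unknown depth limits all values under 1 FPKM.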
